A study of Mus musculus with 9 samples.

Results

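Small leucine-rich proteoglycans (SLRPs) are secreted matrix proteins built of leucine-rich repeats, most of which carry chondroitin, dermatan or keratan sulphate chains. They bind collagen fibrils and govern how thick and how regularly spaced those fibrils become. Decorin and biglycan also bind transforming growth factor β (TGFβ), and biglycan shed from matrix is a ligand of Toll-like receptors. In liver they are made by activated hepatic stellate cells (aHSCs), the contractile, scar-forming cells that arise from vitamin A-storing pericytes after injury, and by portal and mesothelial fibroblasts.

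The 8 genes examined were chosen by name: Dcn (decorin), Bgn (biglycan) and Aspn (asporin) of class I, Lum (lumican), Fmod (fibromodulin) and Prelp of class II, Ogn (osteoglycin) of class III, and Podn (podocan). They were represented by 15 of the 45281 gene probes on the Illumina MouseWG-6 v2.0 bead array. A probe was tested where its signal exceeded the array's negative control beads with a detection p-value under 0.05 on at least 3 of the 9 arrays, which 14 of the 15 probes and 7 of the 8 genes did. Aspn, whose single probe was detected on 0 of 9 arrays, was not tested. Podn passed only through the arrays taken from liver, so a difference between liver and culture was implied by its passing.

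Per the labels every sample came from male WT1GFP/+ mice of strain C57/Bl6, which carry a green fluorescent protein (GFP) reporter knocked in at Wt1. WT1-high (GFP high) and WT1-intermediate (GFP low) aHSCs, 3 arrays per group, were sorted directly from livers injured with carbon tetrachloride (CCl4) for 8 weeks. Per the study's methods, mice used for injury were 8 to 12 weeks old when the experiments began. WT1-negative (GFP negative) aHSCs, also 3 arrays, were sorted after stellate cells from uninjured livers had been activated for 7 days on plastic. WT1 status, injury and origin from liver or culture therefore changed together in every comparison with WT1-negative aHSCs and cannot be told apart. Both such comparisons share the same 3 WT1-negative arrays. Probes carrying the symbol Wt1 were not analysed here.

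Between 17253 and 19774 gene probes were detected per array. The summed level of 12 tested mesothelial markers was 37001 to 41377 (WT1-high), 21392 to 29582 (WT1-intermediate) and 457 to 552 units of normalised intensity (WT1-negative), with Gpm6a, Dmkn, Krt19, Lrrn4 and Muc16 undetected in the last. For 12 macrophage markers the same sums were 2342 to 5075, 9207 to 13984 and 24859 to 25938. Single macrophage markers did not all follow their sum, and Clec4f and Ptprc were undetected in WT1-negative aHSCs. Against WT1-negative aHSCs, 2 were called higher and 8 lower in WT1-high, and 4 higher and 3 lower in WT1-intermediate aHSCs. Of 13 stellate cell markers, Lrat, Rgs5, Lhx2, Gfap and Vipr1 did not pass the detection filter, and the 8 tested summed to 4720 to 6236, 4188 to 5956 and 1675 to 2270. Of those 8, 3 were called higher and 3 lower in WT1-high against WT1-negative aHSCs, so the stellate identity given by the labels rests here on few defining markers. For 11 tested markers of portal and adventitial fibroblasts the sums were 4692 to 6736, 7339 to 12508 and 2103 to 3260, and for 5 tested hepatocyte markers 371 to 1758, 481 to 1418 and 107 to 136. For 7 tested markers of T, NK and B cells they were 572 to 874, 543 to 986 and 149 to 157. The hepatocyte markers Alb, Fabp1 and Fgb did not pass the detection filter. Nor did the fibroblast marker Gli1 and the B cell marker Ms4a1. Mesothelial, stellate, fibroblast, hepatocyte and lymphocyte sums thus stood higher in liver than in culture, as did most SLRPs, whereas the macrophage sum was higher in culture. Their part in the results was not tested. A lower signal may reflect fewer cells of a type or less RNA per cell, and bulk arrays cannot tell these apart.

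The number of probes per gene matters to these results, since Dcn had 4 and Ogn 3 that differed in the size of their response. The first 30 of the 50 bases of each are shown, 5′ to 3′ as deposited, to make clear that they read different stretches of transcript. No part is singled out in capitals.
Dcn ILMN_2747959: gtgcgttctgccattcaacttggaaactac
Dcn ILMN_2596346: caccaagctgcggaaatccgacttcaatgg
Dcn ILMN_2604695: gcgctcacgcagtgaaaccttagttcttaa
Dcn ILMN_1254458: ggaggcccagcagttgagccaaaggttaat
Ogn ILMN_2859613: tgtgtccatgactcattttctctgtgactg
Ogn ILMN_2859619: gcatctgtgaactgtaaggccacaactatt
Ogn ILMN_2740622: ctgtatatgttcacccaaacaaactaaata
Over their whole length the 15 SLRP probes shared no run of 16 bases with each other or with a probe of any other gene on the array. ILMN_1254458 was designed against the cDNA AK031456, whereas the other Dcn probes were designed against RefSeq records of the gene.

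Transcripts of Dcn, Lum, Ogn and Prelp were several-fold more abundant in both WT1-positive populations from fibrotic liver than in WT1-negative aHSCs from culture, and Bgn differed little. These 5 genes were detected on all 9 arrays. Among the 9598 genes so detected, a limma adjusted p under 0.05 was reached as higher in WT1-high than WT1-negative aHSCs by 5 of the 5, against 27.5% of all such genes, with a median log2 difference of 2.26 against -0.13. In WT1-intermediate aHSCs it was reached by 4 of the 5, against 25.3%, with a median of 2.58 against -0.16. Fmod, detected on 1 of 3 WT1-negative arrays, and Podn, detected on 0 of 3, could pass the filter through the liver arrays alone. With these included, 7 of 7 and 6 of 7 genes were called higher, a count given only as a description. Over all 14659 genes tested by their brightest probe, 59.8% were called for WT1-high (27.6% higher, 32.1% lower) and 57.9% for WT1-intermediate against WT1-negative (25.9% higher, 32.0% lower). Separation of all arrays of the 2 groups, in either direction, was shown by 68.7% of all genes for WT1-high against WT1-negative. For WT1-intermediate against WT1-negative it was shown by 65.7%, so such separation below is common on this array. Every level below is a log2 normalised intensity of the gene's brightest probe, and levels are not comparable between genes.

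Dcn encodes decorin, which binds collagen and sequesters TGFβ. It read 13.23, 13.20 and 13.21 in WT1-high replicates 1, 8 and 29. In WT1-intermediate replicates 1, 8 and 30 it read 13.49, 13.30 and 13.79, and in WT1-negative replicates 3, 11 and 14 it read 10.86, 10.50 and 11.49. Levels from culture lay below every level from liver, and the WT1-high arrays were nearly equal. Dcn was 4.79-fold higher in WT1-high than WT1-negative aHSCs (log2 difference 2.26, SE 0.23, limma adjusted p = 8.53e-06) and 5.97-fold higher in WT1-intermediate aHSCs (2.58, SE 0.23, adjusted p = 3.99e-06).

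Lum encodes lumican, a keratan sulphate proteoglycan that limits collagen fibril width, and lies next to Dcn on chromosome 10. WT1-high arrays read 10.02, 10.96 and 10.65 and WT1-intermediate arrays 10.33, 10.98 and 11.35. WT1-negative arrays read 8.31, 7.74 and 9.29, the widest spread of that group among the 7 genes' brightest probes (SD 0.78). The liver groups overlapped each other and both lay above culture. Lum exceeded its level in culture by 2.09 in the WT1-high group (SE 0.38, limma adjusted p = 0.000697) and by 2.44 in the WT1-intermediate group (SE 0.38, adjusted p = 0.000259).

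**Figure D1:**
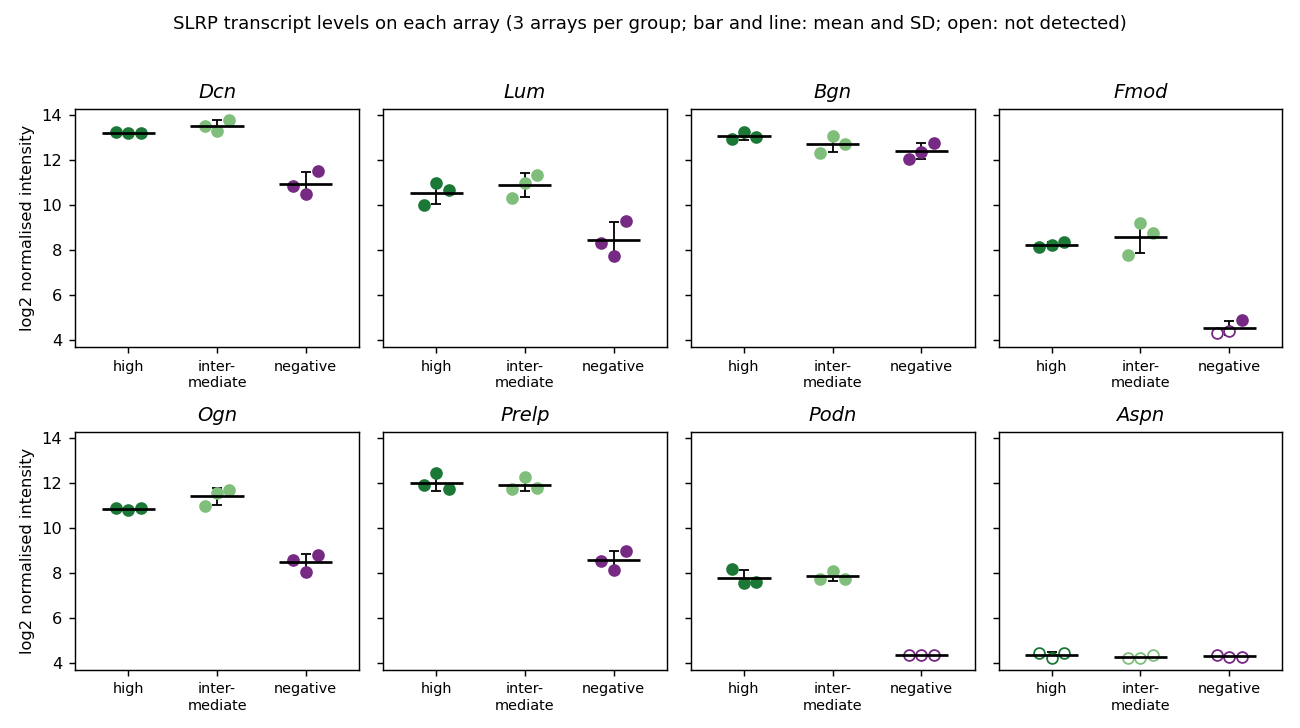
Log2 normalised intensity of the brightest probe of each SLRP gene on every array, in WT1-high, WT1-intermediate and WT1-negative aHSCs (3 arrays each). Lines give the mean and bars the SD, and open circles mark arrays on which the probe was not detected. All genes except Bgn and Aspn sat well below the liver arrays in culture, and Aspn was not detected on any array.

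Fmod encodes fibromodulin, which shares a collagen binding site with lumican. Its probe read 8.13, 8.25 and 8.36 in WT1-high and 7.79, 9.20 and 8.78 in WT1-intermediate aHSCs. In WT1-negative aHSCs it read 4.33, 4.43 and 4.89 and was detected only on the last of these arrays. Its difference from culture was 3.69 for WT1-high (SE 0.30) and 4.04 for WT1-intermediate aHSCs (SE 0.30). As the liver arrays alone could pass the filter, no p is given for Fmod. The size of its difference rests on the background step, since it was 1.83 and 2.12 without background correction and 2.55 and 2.87 with an offset of 50.

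Prelp encodes a heparin-binding SLRP that anchors basement membranes to connective tissue, and is the nearest coding gene to Fmod on one side of it on chromosome 1. WT1-high arrays read 11.89, 12.42 and 11.71, WT1-intermediate arrays 11.72, 12.27 and 11.79, and WT1-negative arrays 8.55, 8.15 and 8.98. Replicate 8 was the highest array of both liver groups, and the liver groups overlapped. Prelp was 10.9-fold higher in WT1-high than WT1-negative aHSCs (log2 difference 3.45, SE 0.25, limma adjusted p = 7.41e-07) and 10.3-fold higher in WT1-intermediate aHSCs (3.36, SE 0.25, adjusted p = 1.09e-06).

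Ogn encodes osteoglycin, also called mimecan, a regulator of collagen fibril assembly. WT1-high arrays read 10.87, 10.81 and 10.89, WT1-intermediate arrays 10.98, 11.55 and 11.66, and WT1-negative arrays 8.57, 8.04 and 8.78. The groups did not overlap, and WT1-intermediate was the highest of the 3. Ogn was 5.25-fold higher in WT1-high than WT1-negative aHSCs (log2 difference 2.39, SE 0.22, limma adjusted p = 4.23e-06) and 7.64-fold higher in WT1-intermediate aHSCs (2.93, SE 0.22, adjusted p = 1.14e-06).

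Podn encodes podocan, a collagen-binding SLRP of the vessel wall. It read 8.16, 7.56 and 7.60 in WT1-high and 7.72, 8.07 and 7.73 in WT1-intermediate aHSCs. In WT1-negative aHSCs it read 4.34, 4.33 and 4.35 and was detected on 0 of 3 arrays, so only a bound could be given. The fold over culture was at least 8.99-fold for WT1-high (group means 7.77 and 4.34). For WT1-intermediate aHSCs it was at least 9.41-fold (7.84 and 4.34). No p is given, because passing the filter already implied a difference. The bound sets the bright group's mean against the lowest detected signal on each WT1-negative array, and here as for every other such bound it holds for the reported background step only. The fitted differences of Podn fell from 3.43 and 3.50 to 1.54 and 1.59 without background correction and to 2.22 and 2.28 with an offset of 50.

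Bgn, encoding biglycan, stood apart. Its probe, detected on all 9 arrays, read 12.92, 13.25 and 13.01 on WT1-high, 12.33, 13.07 and 12.72 on WT1-intermediate, and 12.05, 12.36 and 12.76 on WT1-negative arrays. WT1-high lay above WT1-negative on every array, whereas WT1-intermediate overlapped both other groups. The difference was 0.67 between WT1-high and WT1-negative (SE 0.22, limma adjusted p = 0.0234) and 0.31 between WT1-intermediate and WT1-negative (SE 0.22, 95% interval -0.18 to 0.81, adjusted p = 0.247). This call for Bgn did not hold with array weights (adjusted p = 0.0605), without the detection filter (0.0660), on median scaling (0.0522), or when WT1-high replicate 8 (0.0761), WT1-negative replicate 3 (0.0995) or WT1-negative replicate 11 (0.0590) was left out. Its limma adjusted p ranged from 0.0104 to 0.0995 over all settings.

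**Figure D2:**
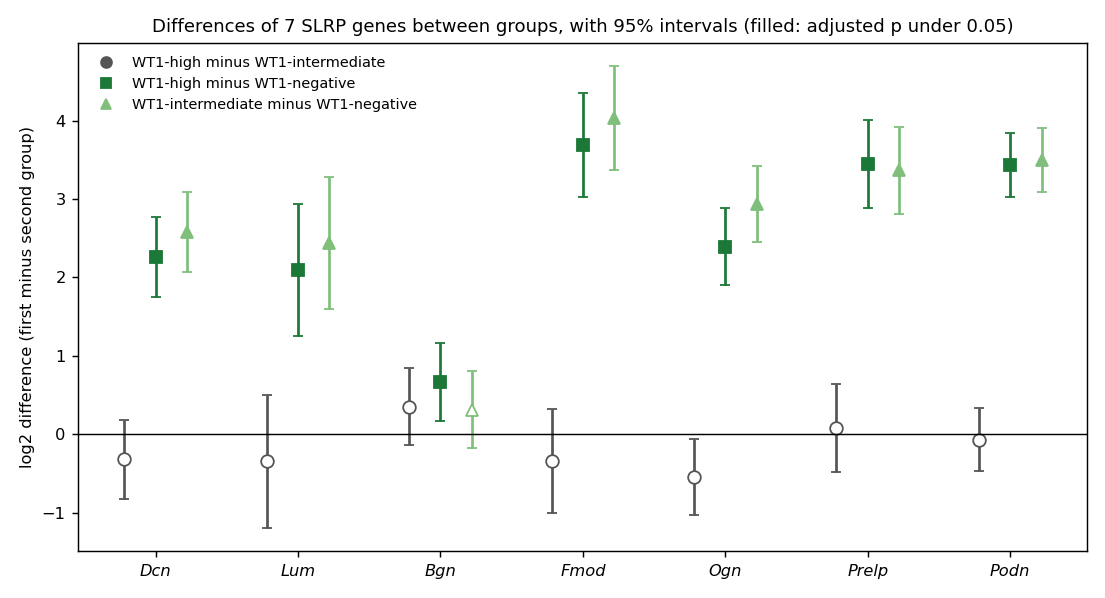
Log2 difference of 7 SLRP genes, by brightest probe, in the 3 comparisons, with 95% intervals from limma. Filled symbols have an adjusted p under 0.05. Dcn, Lum, Ogn and Prelp lay between 2.09 and 3.45 above culture and Bgn at 0.67 and 0.31. The points of Fmod and Podn are fitted to levels that were mostly or wholly undetected in culture, and their size depends on the background step. Their filled symbols against culture are no test, since the liver arrays alone could pass the filter. No symbol was filled for WT1-high against WT1-intermediate aHSCs.

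The aim of the comparison within fibrotic liver was to find how WT1-high and WT1-intermediate aHSCs differ when both were activated in the same animals. None of the 7 SLRP genes was called by its brightest probe, against 3.83% of all genes (0.962% higher and 2.87% lower in WT1-high). At an unadjusted p under 0.05 there was 1, Ogn. Differences ranged from -0.54 to 0.35 with a median of -0.32, against 0.04 for all genes.

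Ogn was lower in WT1-high aHSCs by 0.54 on its brightest probe (SE 0.22, 95% interval -1.03 to -0.05, limma adjusted p = 0.237). Its probe ILMN_2859619 read 7.75, 7.91 and 7.80 in WT1-high and 8.44, 8.29 and 8.84 in WT1-intermediate aHSCs, a difference of -0.70 that was called (SE 0.17, adjusted p = 0.0440). Over single probes, 3.55% of 20573 were called in this comparison. ILMN_2740622 differed by -0.68 (SE 0.23, adjusted p = 0.148). On each of the 3 Ogn probes all WT1-high arrays lay below all WT1-intermediate arrays, a separation in either direction that 20.5% of all genes showed in this comparison, and whether Ogn was called depended on the probe. The matched numbers 1, 8, and 29 with 30 gave differences of -0.11, -0.74 and -0.77 on the brightest probe.

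Dcn differed by -0.32 on its brightest probe (SE 0.23, limma adjusted p = 0.527). All WT1-high arrays lay below all WT1-intermediate arrays, a separation in either direction that 20.5% of all genes showed. Its probe ILMN_2604695 moved the opposite way, with 8.80, 9.76 and 8.78 in WT1-high against 8.34, 8.60 and 8.75 in WT1-intermediate aHSCs (difference 0.55, SE 0.32, adjusted p = 0.419). The direction of Dcn between these groups was therefore not settled by its probes. Lum differed by -0.35 (95% interval -1.19 to 0.50), Fmod by -0.34 (SE 0.30) and Bgn by 0.35 (-0.14 to 0.85), each with overlapping groups. Median scaling raised the median of all genes in this comparison from 0.04 to 0.42 and turned the sign of the Lum (0.11), Fmod (0.27) and Podn (0.55) differences. Relative to that median, Lum and Fmod remained negative (-0.31 and -0.15) and Podn was positive (0.13). Prelp (0.08, 95% interval -0.47 to 0.64) and Podn (-0.07, -0.47 to 0.34) had the smallest differences.

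Against WT1-negative aHSCs the probes of a gene differed in the size of the difference they gave. For single probes the share called over the array against WT1-negative was 59.6% (WT1-high) and 58.0% (WT1-intermediate), and the 13 SLRP probes other than that of Bgn were called higher in both. Of these, Dcn ILMN_1254458, Fmod ILMN_1230020, Ogn ILMN_2859619 and Podn ILMN_1229370 were detected only on liver arrays, so that a difference was implied by their passing the filter. Fmod ILMN_2999762 and Ogn ILMN_2740622, each detected on 1 WT1-negative array, could also pass it through the liver arrays alone. Dcn ILMN_2596346 gave 4.15 and 4.21, a larger difference than the brightest probe's 2.26 and 2.58. Deposited intensities of the brightest Dcn probe were 9674 to 13153 on liver arrays, whose highest intensity for any gene was 14313 to 16845, and whether that proximity bears on its smaller difference was not tested.

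ILMN_2604695 gave 3.57 and 3.02 for Dcn. ILMN_1254458 was detected on 0 of 3 WT1-negative arrays and was at least 1.85-fold and 2.53-fold higher in WT1-high (means 5.50 and 4.21) and WT1-intermediate aHSCs (5.94 and 4.21). Lum ILMN_2773259 gave 3.68 and 4.15, against 2.09 and 2.44 on the brighter probe. These pairs of probes therefore placed the same gene several-fold apart.

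Fmod ILMN_1230020 was not detected in culture and was at least 3.99-fold and 5.39-fold higher (means 6.60 and 7.04 against 4.22). Ogn ILMN_2859619, likewise not detected in culture, was at least 9.28-fold and 15.1-fold higher (7.82 and 8.52 against 4.34), and ILMN_2740622, detected on 1 of 3 WT1-negative arrays, gave 2.83 and 3.51. Ranking the SLRPs by the size of their difference would thus change with the probe.

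**Figure D3:**
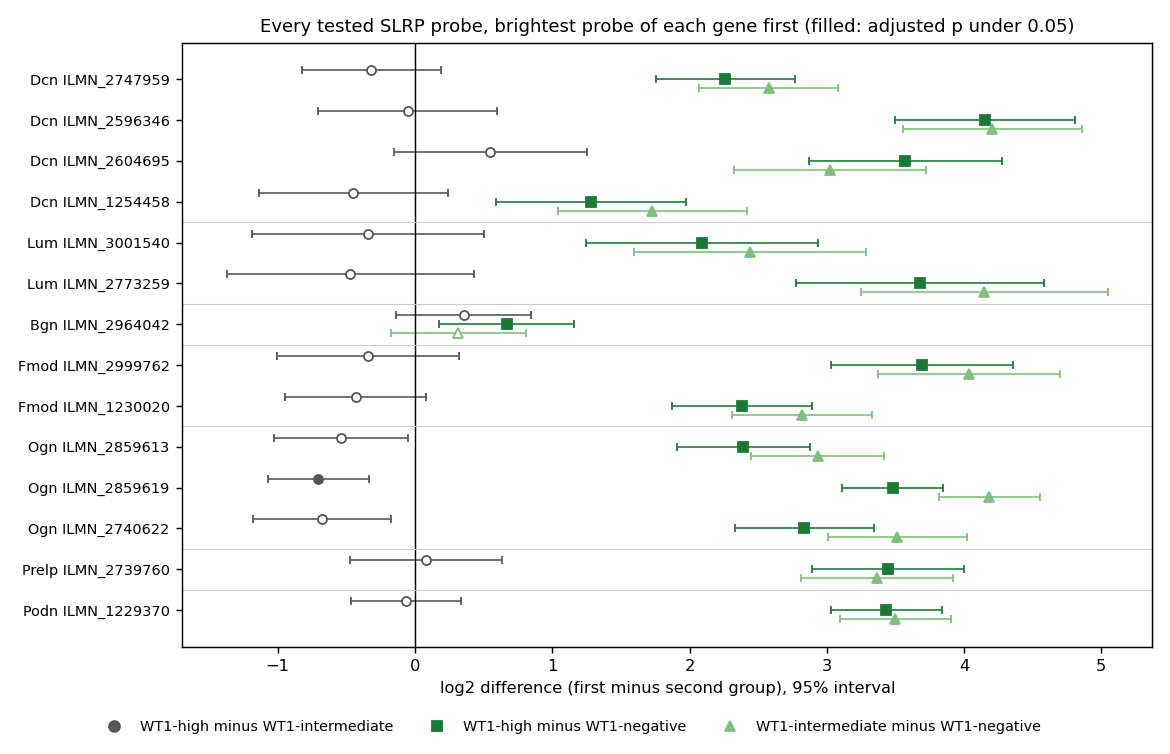
Log2 differences of the 14 tested SLRP probes in the 3 comparisons, with 95% intervals from limma. Filled symbols have an adjusted p under 0.05. All fitted values except those of Bgn (0.67 and 0.31) lay at 1.28 or more above culture, and Ogn ILMN_2859619 (-0.70) was the only filled symbol for WT1-high against WT1-intermediate. Against culture, filled symbols of probes not detected on every WT1-negative array are no test, since the liver arrays alone could pass the filter.

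The 7 profiles over the 9 arrays were compared after each was centred on its own mean. The root mean square difference was smallest between Dcn and Ogn (0.25), followed by Prelp and Podn (0.34) and by the neighbours Dcn and Lum (0.35). Bgn differed from every other member by 0.96 to 1.63, and Fmod and Prelp, which also lie close together, differed by 0.43. Among all other named genes, Larp6 was closest to Dcn (0.17) and to Ogn (0.14), Col6a3 to Lum (0.21), and Copz2 to Bgn (0.12). With levels in culture mostly or wholly undetected, Klrd1 was closest to Fmod (0.26) and LOC100044934 to Podn (0.18), and scl0002507.1_236 was closest to Prelp (0.19). These are descriptions over 9 arrays that fall into liver and culture, and carry no test. Within the WT1-negative group, replicate 11 gave the lowest level of Dcn, Lum, Ogn and Prelp, and replicate 14 the highest of every detected SLRP.

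SLRP genes lie in clusters in the mouse genome. Dcn is followed by Lum, Kera and Epyc on chromosome 10, and Ecm2, Aspn, Omd and Ogn stand in a row on chromosome 13. Optc and Prelp precede Fmod on chromosome 1. Of the 9 other family members listed, only Omd and Tsku were detected on enough arrays to be tested. Omd, the neighbour of Ogn, averaged 5.55 (WT1-high), 5.90 (WT1-intermediate) and 4.31 (WT1-negative), and was detected on 0 of 3 arrays from culture. It was at least 1.93-fold and 2.46-fold higher in the liver groups, which its passing the filter through liver arrays alone implied. Tsku was higher in WT1-high than WT1-negative aHSCs by 0.58 (SE 0.23, adjusted p = 0.0486) and differed by 0.31 for WT1-intermediate (adjusted p = 0.259). Ecm2 and Aspn, which lie in the same row, did not pass the detection filter.

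Upstream sequence is shown for Ogn, the member closest to Dcn, and for Bgn, the member farthest from the rest. The RefSeq promoter table (GRCm38.p6) held 7 windows for 6 of the 8 genes, each of 250 bases before and 50 after the start. Dcn and Lum are named only.
Ogn, GRCm38.p6 chr13:49607765-49608014, plus strand, capitals TATAAA on either strand, 2 overlapping matches: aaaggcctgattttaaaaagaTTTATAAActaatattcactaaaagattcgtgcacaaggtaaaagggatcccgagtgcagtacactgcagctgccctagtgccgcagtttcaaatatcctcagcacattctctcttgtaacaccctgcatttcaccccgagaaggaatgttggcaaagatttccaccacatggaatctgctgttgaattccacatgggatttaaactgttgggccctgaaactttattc
Bgn, GRCm38.p6 chrX:73483351-73483600, plus strand, capitals GGGCGG on either strand, 3 matches of which 2 overlap: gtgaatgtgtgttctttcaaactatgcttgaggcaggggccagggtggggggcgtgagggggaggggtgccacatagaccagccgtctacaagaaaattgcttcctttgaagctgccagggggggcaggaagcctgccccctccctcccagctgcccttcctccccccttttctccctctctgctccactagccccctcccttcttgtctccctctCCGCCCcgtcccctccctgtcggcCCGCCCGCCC
The TATA box letters TATAAA occurred in the windows of Ogn and Aspn, and in 13.6% of all 32851 windows. The GC box letters GGGCGG occurred in the window of Bgn and in the Podn window of 77.0% GC, and in 35.7% of all. The Podn window of 63.0% GC held none. GCGTGGG, the core bound by WT1 and EGR factors, was found in 0 of the 7 windows and in 5.04% of all, TGANTCA (AP-1) in 0 and 7.81%, and GGAATG (TEAD) in that of Ogn and 14.7%. All were searched on both strands. The windows of Bgn and Podn were GC-rich (63.7%, and 77.0% and 63.0% for the alternative starts of Podn), that of Aspn was 31.0% GC, and the median of all windows was 52.7%. These matches describe letters in a window and not binding.

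Genes that build, bind or cut SLRPs are given by list, and no test compared a list with the SLRPs or with other genes. The counts are to be read beside the shares of all genes called. Against culture these were 59.8% for WT1-high (27.6% higher, 32.1% lower) and 57.9% for WT1-intermediate aHSCs (25.9% higher, 32.0% lower). Within liver the share was 3.83% (0.962% higher and 2.87% lower in WT1-high). The counts include genes such as Omd, Ust, B4galt4 and Prg4 that passed the filter through liver arrays alone. Of 17 tested genes of chondroitin and dermatan sulphate chain assembly, 4 were higher and 7 lower in WT1-high than WT1-negative aHSCs, with a median of -0.01 against -0.07 for all genes. In WT1-intermediate aHSCs 1 was higher and 7 lower (median -0.35 against -0.10). Chpf, a chondroitin chain polymerising factor, was higher by 2.71 and 2.68 (SE 0.26 each). B4galt7, which adds a galactose to the linker joining chain and core protein, was lower, at -1.70 and -1.66 (SE 0.17 each, limma adjusted p = 8.53e-06 and 1.26e-05). Xylt2, a xylosyltransferase that starts the linker, was lower in WT1-high than WT1-negative aHSCs (-1.24, SE 0.15, adjusted p = 3.94e-05) and was the 1 gene of the list called within liver (-0.67, SE 0.15, adjusted p = 0.0386). Fam20b, the kinase acting on the linker xylose, differed by -0.93 in WT1-intermediate against WT1-negative aHSCs. Papss1 (0.53), Dsel (0.52) and Ust, at least 1.19-fold higher and undetected in culture, completed the 4 higher genes in WT1-high aHSCs.

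Of 6 tested genes of keratan sulphate assembly, 2 were higher than in culture in both liver groups, 0 were lower, and 0 were called within liver. They were B4galt4, a galactosyltransferase detected on 0 of 3 WT1-negative arrays and at least 6.03-fold and 3.85-fold higher (means 7.20 and 6.55 against 4.26), and Fut8, a fucosyltransferase of the N-glycan core (0.86 and 0.71).

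Of 19 tested receptors and bound ligands, 5 were higher and 9 lower than in culture in each liver group, with medians of -0.79 and -0.22. The higher ones in both were Lrp1, an endocytic receptor for decorin, Bmp4, Tgfb2, Tgfb3 and Egfr. Lrp1 differed by 2.04 and 2.53, and the others by 0.63 to 2.64. The complement genes C1qa, C1qb and C1qc, whose product binds decorin and biglycan, were lower by the most: C1qa averaged 6.34 (WT1-high), 9.17 (WT1-intermediate) and 11.8 (WT1-negative). Within liver, C1qa (-2.83, SE 0.16), C1qb (-2.55, SE 0.20), C1qc (-2.62, SE 0.18) and P2rx7 (-0.71) were the 4 called, all lower in WT1-high. P2rx7 read 4.30 and 4.43 on WT1-high replicates 8 and 29, below their lowest detected signals of 4.50 and 4.65. The size of its difference is therefore uncertain. C1q genes are expressed by macrophages. Of 12 macrophage markers, 7 were lower in WT1-high than WT1-intermediate aHSCs and 0 higher, against 2.87% and 0.962% of all genes. The part of macrophage RNA in the C1q differences was not tested.

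**Figure D4:**
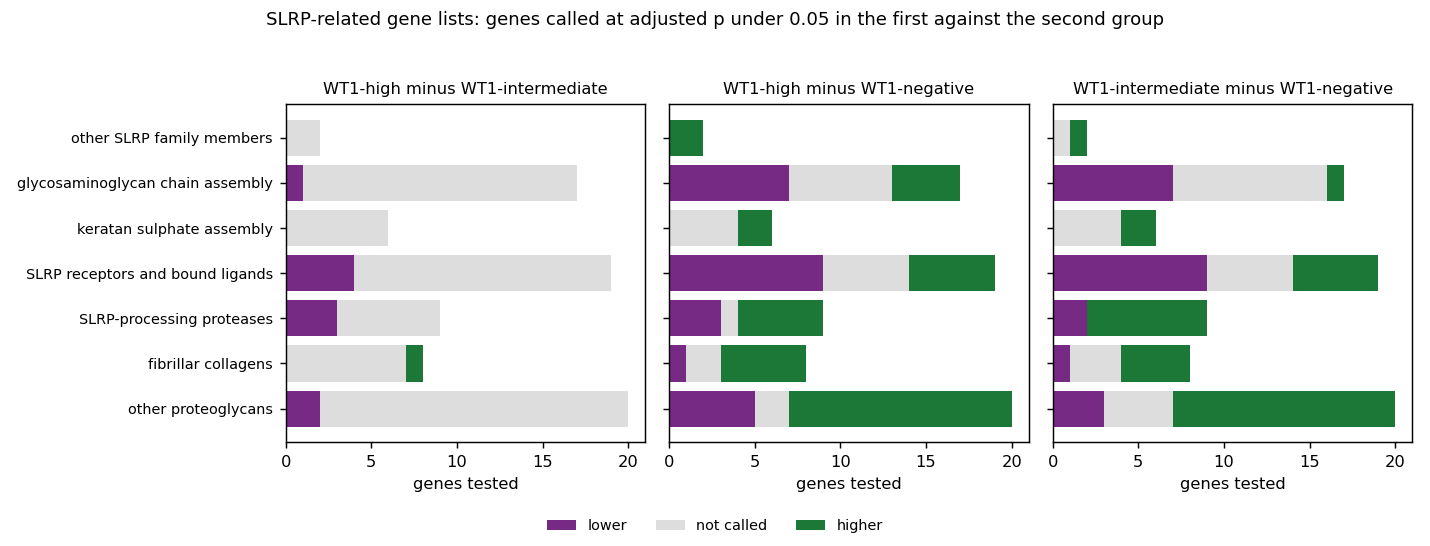
Number of tested genes that were lower, not called or higher (limma adjusted p under 0.05) in 7 lists of SLRP-related genes, in the first against the second group of each comparison. The list of other proteoglycans, which counts Bcam, held 13 higher genes of 20 in both comparisons with culture. Chain assembly genes held 4 and 1 higher and 7 lower of 17. Over all genes 27.6% were higher and 32.1% lower in WT1-high against WT1-negative, and 25.9% and 32.0% in WT1-intermediate against WT1-negative aHSCs. Called in either direction were 59.8%, 57.9% and, for WT1-high against WT1-intermediate aHSCs, 3.83%.

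Of 9 tested proteases and protease enhancers that process SLRPs or collagen, 5 were higher and 3 lower in WT1-high, and 7 higher and 2 lower in WT1-intermediate, than in WT1-negative aHSCs. Mmp2, a gelatinase, was higher by 2.55 and 3.19 (SE 0.24 each), and Mmp9 lower, at -3.50 and -3.08 (SE 0.35 each). Bmp1, Htra1, Mmp14 and Pcolce were the remaining higher genes in WT1-high aHSCs, at 0.66 to 1.92. Within liver 3 were called, all lower in WT1-high: Mmp13 (-2.06, SE 0.31), Mmp3 (means 7.81 and 9.80, SE of the difference 0.30, limma adjusted p = 0.00482 for both) and Adamts4, an aggrecanase that also cuts SLRPs (-1.82, SE 0.23, adjusted p = 0.00198). Mmp13 was also lower in WT1-high than WT1-negative aHSCs (-3.39), as was Mmp3 (-0.98), whereas Adamts4 was higher in WT1-intermediate than WT1-negative aHSCs (2.05).

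Fibrillar collagens, to which SLRPs bind, gave 5 higher and 1 lower of 8 in WT1-high and 4 higher and 1 lower in WT1-intermediate against WT1-negative aHSCs. Col3a1 (4.55 and 4.36, SE 0.37 each), Col1a2 (2.69 and 2.39, SE 0.32 each) and Col24a1 (2.87 and 1.29, SE 0.34 each) differed most, with Col5a2 (1.65 and 1.24) in both and Col5a1 (0.93) in WT1-high. Col1a1 was the lower gene in both (-1.40 and -1.26). On WT1-negative replicates 11 and 14 Col24a1 read 4.30 and 4.50, below their lowest detected signals of 4.55 and 4.63. The size of its difference from culture is therefore uncertain, and the liver arrays alone could pass it through the filter. Col24a1 was the 1 gene of the list called within liver, higher in WT1-high by 1.58 (SE 0.34, limma adjusted p = 0.0291).

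Of 20 tested genes listed as other proteoglycans, 13 were higher than in culture in each liver group, with medians of 1.40 and 1.20. In WT1-high aHSCs 5 were lower, and in WT1-intermediate aHSCs 3. The list counts Bcam, a cell adhesion glycoprotein rather than a proteoglycan. Prg4 (lubricin), made by mesothelial and synovial lining cells, was detected on 0 of 3 WT1-negative arrays and was at least 256-fold and 203-fold higher (means 12.6 and 12.3 against 4.30). Gpc3, a glypican, was higher by 5.08 and 4.97 (SE 0.24 each). Esm1, an endothelial dermatan sulphate proteoglycan, was lower, at -4.40 and -3.75 (SE 0.21 each). The remaining lower genes in WT1-high aHSCs were Sdc3, Srgn, Gpc1 and Cspg4, and in WT1-intermediate aHSCs Sdc3 and Cspg4. Sdc3 (-1.84, SE 0.25) and Srgn (-1.35, SE 0.27), the latter a proteoglycan of blood cell granules, were lower in WT1-high than WT1-intermediate aHSCs.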

How the data were processed

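The deposited values, per the file headers, were BeadStudio summary probe profiles, 1 intensity per probe and array on a linear scale, neither background corrected nor normalised. Each came with a deposited detection p-value from the array's 936 negative control probes. Genome build and probe coordinates are not given in the sources used here. The authors' methods and processing notes name limma without a version. The joined table deposited beside them had identical intensities (largest difference 0). A WT1-intermediate column numbered 29 was assigned to replicate 30, since no other array of its group remained and the joined table gave that sample equal values.

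Intensities were background corrected from negative controls, quantile normalised and log2 transformed with limma 3.58.1 (neqc steps, offset 16) in R 4.3.3. The filter, not stated by the study, kept 20573 probes (14659 gene symbols) that reached a detection p under 0.05 on 3 or more arrays. All 9 arrays entered 1 linear model of the 3 groups, with 6 residual degrees of freedom and 5.19 from the prior. Comparisons used limma's moderated two-sided test with Benjamini-Hochberg adjustment over all kept probes, and an adjusted p under 0.05 is a call. SDs, on the log2 scale, are over the 3 arrays of a group. SEs, on the same scale, are limma's moderated values from the spread shared by all 9 arrays in the model. With 3 arrays per group the precision is limited. A gene is given by its brightest tested probe. Folds against a group in which no array detected the probe are lower bounds, written "at least". The labels do not say that replicates were separate cultures or animals throughout, so p-values measure the spread between these arrays. In the liver groups 3 animals gave 6 arrays per the study's methods: deviations from group means correlated over probes at 0.35 (number 1), 0.34 (number 8) and 0.47 (29 with 30), and between -0.39 and 0.03 in the other 6 combinations, so the numbers pair the samples. The authors' methods name a linear model and mention no block, and the reported fit has none. The tables of liver and culture arrays were separate files, normalised here together. The steps were tested on simulated data.

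The 8 genes, the lists and the rules were chosen with earlier results of these data known. Named genes were the 8 members and, per list and comparison, the 3 called genes with the largest difference. Genes named to complete a count of 5 or fewer, Col1a1 and P2rx7 among them, were chosen after their values were seen. Counts, medians and shares over genes detected on all 9 arrays were added after seeing the data. Likeness was sought over all kept probes of other named genes. Lists were joined to the array by symbol (143 entries tested) or Entrez gene ID (2), while 40 entries did not pass the detection filter and 6 were not matched. Among the marker lists, endothelial markers (9 tested) were higher for 1 and lower for 5 in WT1-high against WT1-negative aHSCs, and markers of T, NK and B cells (7 tested) higher for 6 and lower for 0. Kdr stands in both the receptor and the endothelial list. Alternatives covered background correction, normalisation, offset, filter, arrays in the fit, array weights, replicate blocks, probe choice and each left-out array. Promoter windows and gene order are from RefSeq tables of GRCm38.p6.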

Additional observations from a re-analysis of the deposited data

How the results depend on the processing

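Under 12 other settings the sign and side of the threshold were kept by 77 of 82 recomputed differences of the 7 genes for WT1-high against WT1-intermediate, 79 of 82 for WT1-high against WT1-negative and 82 of 82 for WT1-intermediate against WT1-negative. With 1 array left out these were 58, 60 and 63 of 63. The Bgn call in WT1-high against WT1-negative was lost in the remaining 3 and 3, its difference being 0.60 on median scaling, 0.67 with no filter and 0.49 with array weights, and lying between 0.50 and 0.86 with 1 array left out. Against WT1-negative these counts, and the counts of calls below, include Fmod and Podn where tested, whose side of the threshold is no test. The filter settings and the fit of only the compared groups left the differences themselves unchanged. The second-brightest setting repeated the only tested probe of Bgn, Prelp and Podn. Differences of Fmod and Podn from WT1-negative shrank by over 1.5-fold without background correction (Fmod 1.83 and 2.12, Podn 1.54 and 1.59). With an offset of 50 they shrank to 2.55 and 2.87 (Fmod) and to 2.22 and 2.28 (Podn). For WT1-high against WT1-intermediate, Lum (0.11), Fmod (0.27) and Podn (0.55) turned positive under median scaling and Podn under cyclic loess (0.0317). Leaving out 1 array gave Prelp -0.13 to 0.25 and Podn -0.26 to 0.0496. Prelp changed sign when replicate 8 of WT1-high or replicate 1 of WT1-intermediate was omitted, and Podn when replicate 8 or 29 of WT1-high or replicate 8 of WT1-intermediate was. The cause was not tested. With the second-brightest probe 1 SLRP gene, Ogn, was called in that comparison (difference -0.70). With 1 array left out, 0 SLRP genes were called in that comparison, 6 to 7 for WT1-high against WT1-negative, and 6 for WT1-intermediate against WT1-negative. With detection required on all 9 arrays 5 and 4 genes were called against WT1-negative, of 5 tested, since Fmod and Podn were not tested. The genes called over the 7 SLRP-related lists, an alternative chosen after seeing the data, numbered 11 within liver, 6 without background correction, and 7 to 10 with 1 array left out, of which 7 was without WT1-high replicate 8. A fixed replicate block pairing the liver arrays left the SLRP calls at 0, 7 and 6 and gave 15 calls over the lists within liver. No block changed the call of a member gene. Cyclic loess moved the median of all genes by 0.11 for WT1-intermediate against WT1-negative, and median scaling by -0.30. Dim probes close to the negative controls, such as those of Podn and Omd in culture, set only lower bounds.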
